A study of Oryza sativa Indica Group with 12 samples.

Results

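The comparison described here set anthers holding single-celled pollen (SCP) against meiotic anthers (MA) of rice on the Affymetrix rice genome array, with 3 arrays of each stage, 6 of the 12 arrays of the series. The arrays were chosen by their stage labels alone, and all 57258 rice probe sets were tested. Both stages came from wild-type Oryza sativa subsp. indica cv. IR64, grown in the field without treatment. MA anthers were 500 to 850 µm long and covered leptotene to the tetrad, and SCP anthers were 900 to 950 µm long and held uninucleate microspores. Per the methods, the 3 replicates of a stage were bulks made from anthers of 8 to 10 plants. The other 6 arrays, of pre-meiotic anthers (PMA, 350 to 450 µm) and anthers with tricellular pollen (TPA, 2000 to 2500 µm), shared the estimate of the spread between arrays, and their levels are given only as context. Whole anthers were sampled, so meiocytes or microspores, tapetum, middle layer, endothecium, epidermis, connective and filament contributed RNA together, and fewer cells of a type cannot be told apart from less RNA per cell. The MA arrays were run by a different person from the other stages, so operator and stage cannot be told apart for any MA value.

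Between these stages meiosis ends and the callose wall around each tetrad is dissolved, which frees the microspores. The tapetum, the innermost wall layer, feeds the microspores, secretes the precursors of sporopollenin (the polymer of hydroxylated fatty acids and phenolics that forms the outer pollen wall, the exine), coats the locule with lipid-bearing orbicules and then degenerates by programmed cell death. In rice a chain of transcription factors drives this programme, among them UDT1, TDR and the basic helix-loop-helix (bHLH) proteins TIP2 (bHLH142) and EAT1 (bHLH141), with the PHD-finger protein PTC1 acting late.

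SCP replicate 3 stood apart from its group. Its Pearson correlation over probe sets with the other SCP arrays was 0.989, against 0.998 between SCP replicates 1 and 2 and between the MA arrays; correlations between MA and SCP arrays ran from 0.937 to 0.942. Of the 4512 probe sets called without it, SCP replicate 3 lay between the MA mean and the mean of the other 2 SCP arrays at 2756 (61.1%), whereas the same share for SCP replicates 1 and 2, each set apart in turn, was 49.7% and 48.6%. The marker genes moved as follows. The summed signal of 17 meiosis genes was 6271 to 6769 in MA and 1114 to 1550 in SCP, and that of 9 tapetum regulators was 16120 to 18220 in MA and 22940 to 26040 in SCP. Those 9 did not move together. EAT1 and PTC1 were called higher (means 873 to 8988 and 8.28 to 3201). TIP2 and TDL1A were called lower (5826 to 488 and 414 to 11.5), and 5 were not called. Their sum is therefore not a measure of tapetum content. Of 5 mature pollen markers 4 had a mean at or under 10 in both stages, the level the study took as absent, and their sum reached 55.1 to 65.0 in MA, 58.7 to 193 in SCP and 21560 to 26010 in TPA. The sum of 10 photosynthesis genes was 3918 to 3970 in MA and 6595 to 11800 in SCP, and that of 5 meristem and primordium markers 590.5 to 630.8 in MA and 133.6 to 179.4 in SCP. The part that cell make-up plays in the results below was not tested.

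A probe set was called when its adjusted p (limma, Benjamini-Hochberg over all rice probe sets) was at most 0.005 and its fold change at least 2. By this rule 4764 of 57258 rice probe sets (8.32%) differed, 2206 (3.85%) higher and 2558 (4.47%) lower in SCP. With 1 probe set for each of 17905 annotated genes the shares were 6.65% higher and 8.33% lower. At all 4764 the 3 MA and the 3 SCP values did not overlap. The falls were the more numerous but the rises the steeper: 1327 rose and 1078 fell by at least 4-fold, 486 rose and 284 fell by at least 16-fold, and 187 rose and 64 fell by at least 64-fold. Without SCP replicate 3 the balance turned, with 2315 higher and 2197 lower, and 3964 probe sets were called the same way with and without it. Of the rises, 693 started at or under 10 in MA and exceeded 20 in SCP. Among these, 617 were also at or under 10 in PMA, and 488 in both PMA and TPA, so that their signal was seen at SCP alone. In the other direction 494 probe sets went from over 20 in MA to at or under 10 in SCP, of which 380 were at or under 10 in TPA too and 193 in both PMA and TPA. SCP was the stage of the highest mean for 1776 of the 2206 rises and TPA for 339. Of the 2558 falls, 1504 had their highest mean in MA and 721 in PMA.

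**Figure D1:**
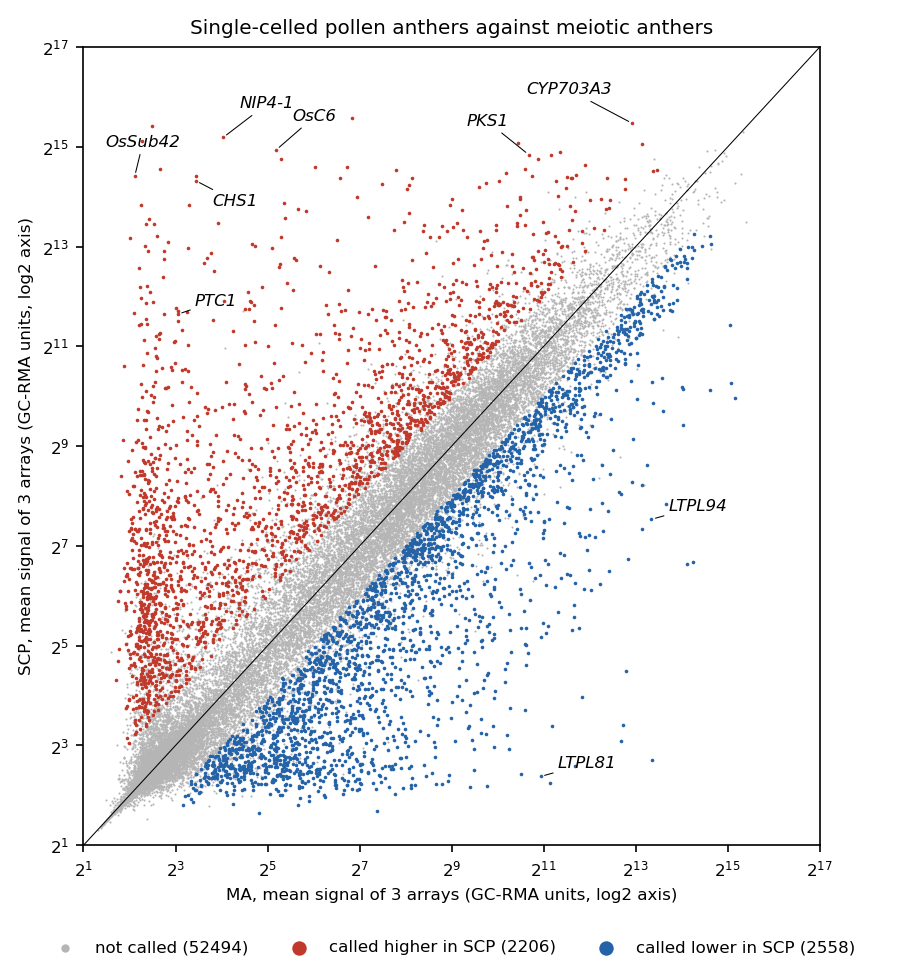
Mean deposited signal of each rice probe set in the 3 MA arrays (x axis) and the 3 SCP arrays (y axis), both in GC-RMA units on log2 axes, with the diagonal marking equal signal. The 2206 probe sets called higher (red) reach up to levels near those of OsSub42 and NIP4-1 from the floor of the MA axis, and the 2558 called lower (blue) run along the whole MA range.

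The regulators of the tapetum did not move as a block. Of 9 measured, 2 were higher, 2 were lower and 5 were not called, with a median log2 difference of 0.06. Without SCP replicate 3 the counts were 1 higher and 3 lower. Over the 2432 genes with a name, each measured by its brightest probe set, the median was -0.02. Of these genes 6.78% were higher and 9.99% lower (16.8% in all). Among the 9 regulators 8 were also in the study's table of genes preferential to pollen mother cells. The 917 probe sets of that table were 7.09% higher and 27.8% lower. PTC1, which controls tapetal degeneration and exine formation, gave signals of 8.78, 7.28 and 8.78 in the 3 MA replicates and 2676, 2748 and 4180 in the 3 SCP replicates. It rose by 8.57 on the log2 scale (SE 0.15, adjusted p = 1.37e-09 by limma), with the highest value in SCP replicate 3 and means of 8.79 in PMA and 9.10 in TPA. EAT1 gave 784.6, 898 and 935 in MA and 8458, 8730 and 9776 in SCP. It rose by 3.37 (SE 0.60, adjusted p = 0.00371 by limma). With any 1 of the 6 arrays left out the call was lost though the size was little changed (3.30, adjusted p = 0.0141 by limma, without SCP replicate 3). EAT1 was called higher in a fit of the 6 MA and SCP arrays alone (adjusted p = 6.78e-05 by limma). TIP2, which acts upstream of EAT1, went the other way, from 5560, 5562 and 6357 in MA to 341, 347 and 776 in SCP, a log2 difference of -3.69 (SE 0.38, adjusted p = 1.50e-04 by limma). Of these 2 bHLH genes 1 thus rose and the other fell, with the groups of neither overlapping.

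TDR, the bHLH factor between UDT1 and the lipid genes, was at 3855, 3711 and 4834 in MA and 3977, 3768 and 5188 in SCP, and its groups overlapped (log2 difference 0.06, SE 0.35). Its mean was 151 in PMA and 81.7 in TPA, so both stages compared sat on the same plateau. The MYB factor GAMYB was at 4415, 4254 and 4219 in MA and 5840, 5937 and 4965 in SCP, and UDT1 at 32.4, 37.9 and 37.5 in MA and 24.8, 28.7 and 9.49 in SCP. Neither gene's groups overlapped, but neither was called (log2 differences 0.37 and -0.92, adjusted p = 0.122 and 0.208 by limma). The MYB gene TDF1 went from 453, 415 and 532 to 31.2, 51.5 and 334. It was not called with all arrays (adjusted p = 0.0804 by limma) and was called lower without SCP replicate 3, whose value lay near those of MA. TDL1A, the small secreted ligand of the receptor kinase MSP1 that limits the number of sporogenous cells, dropped from 410, 402 and 430 to 12.3, 10.9 and 11.3 (log2 difference -5.17, SE 0.32, adjusted p = 5.65e-06 by limma). MSP1 itself was at 842, 833 and 863 in MA and 1578, 1375 and 805 in SCP, overlapping groups, against a mean of 6244 in PMA.

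**Figure D2:**
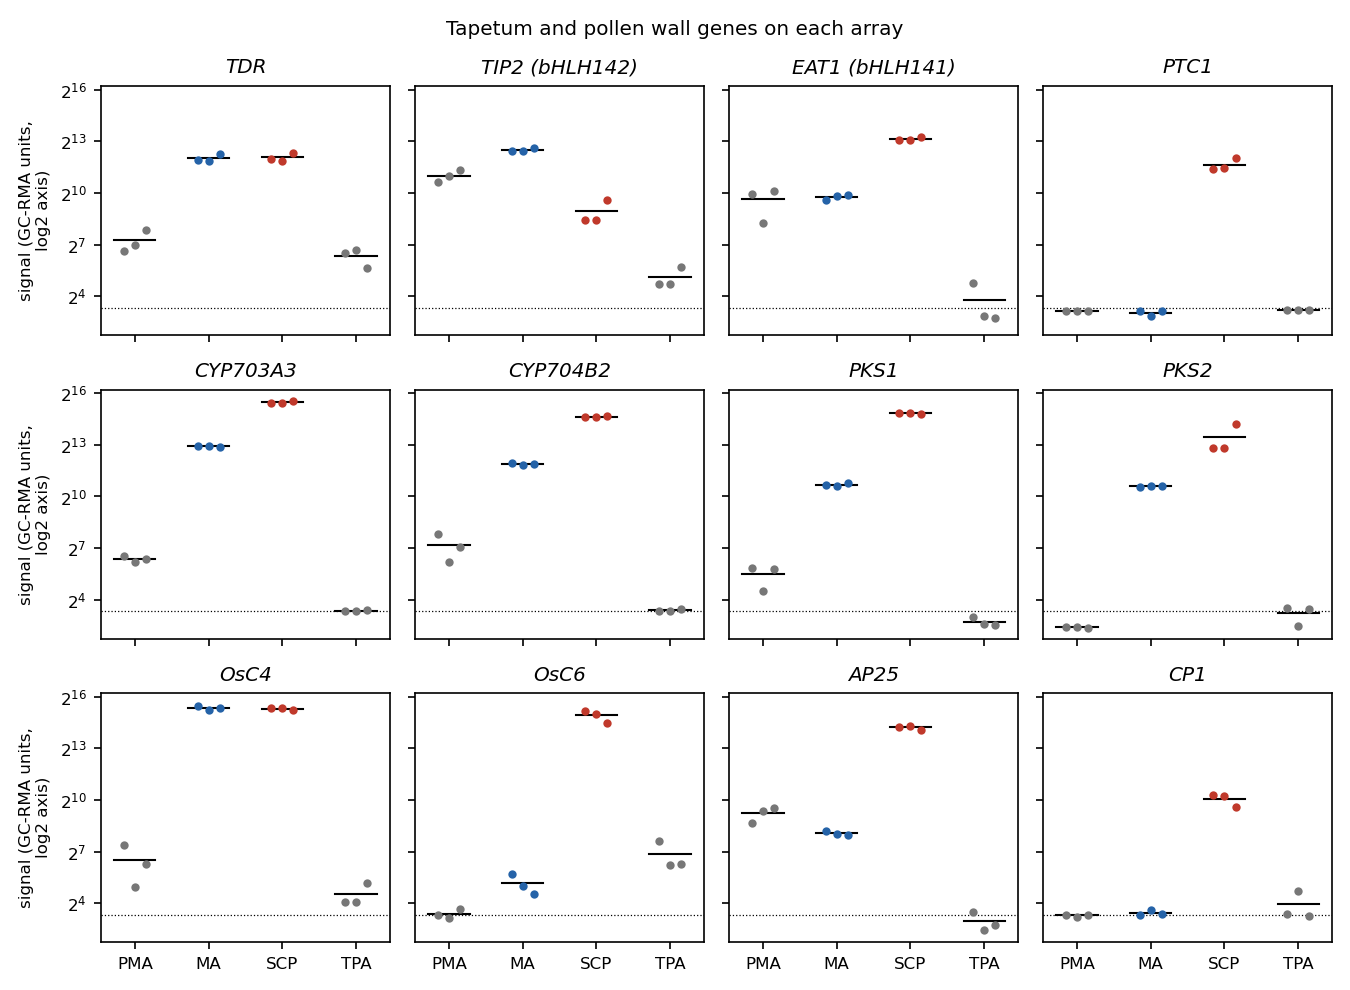
Signal on each array (GC-RMA units, log2 axis) of 12 tapetum and pollen wall genes in the 4 anther stages, with 3 points per stage and a line at their mean; the dotted line marks 10, the level taken as absent. CYP703A3, CYP704B2, PKS1 and PKS2 are already above 1400 in MA and rise further in SCP, whereas PTC1 is above the dotted line in SCP and under it on the MA arrays, CP1 goes from near the line in MA to over 700 in SCP, and TIP2 falls while EAT1 rises.

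Of 5 measured sporopollenin and wall lipid enzymes 4 were on in MA and went higher in SCP anthers, and 0 were lower. Their median log2 difference was 2.70, and of named genes 6.78% were higher and 9.99% lower. Of the 5 enzymes 4 were also in the pollen mother cell table, which was 7.09% higher and 27.8% lower. CYP704B2, PKS1 and PKS2 were matched by locus and are not among the named genes. ACOS12, TKPR1, DPW, DPW2, WDA1, NP1 and STRL2, of the same list, were not matched to a probe set and not measured. CYP703A3, which hydroxylates lauric acid within the chain, went from 7868, 7968 and 7536 in MA to 43437, 44551 and 48035 in SCP, a rise of 2.54 (SE 0.08, adjusted p = 6.96e-08 by limma). CYP704B2 (LOC_Os03g07250), which hydroxylates the end of longer fatty acids, went from 3874, 3660 and 3854 to 25222, 25020 and 26450 (log2 difference 2.75, SE 0.32, adjusted p = 2.79e-04 by limma). Of its 2 other probe sets, 1 was called higher by 3.55 and the other was not called, with a difference of -1.34. The polyketide synthases PKS1 (LOC_Os10g34360) and PKS2 (LOC_Os07g22850) condense the acyl-CoA products into alkylpyrones. PKS1 went from 1610, 1544 and 1775 to 29549, 29665 and 28554, the steepest rise of the 4 (log2 difference 4.16, SE 0.32, adjusted p = 2.46e-05 by limma). PKS2 went from 1489, 1582 and 1563 to 7349, 7305 and 18713, with SCP replicate 3 at the top (log2 difference 2.70, SE 0.39, adjusted p = 0.00105 by limma). The call of PKS2 was lost in a fit of the 6 MA and SCP arrays alone (adjusted p = 0.0105 by limma). All 4 had means of 5.30 to 145 in PMA and 6.61 to 10.6 in TPA. The acyltransferase GPAT3 (LOC_Os11g45400) stayed low and overlapping (43.1, 37.5 and 21.8 against 26.6, 43.3 and 36.7).

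Proteins that the tapetum secretes or uses for export differed in when they appeared. Of 6 measured, 1 was higher, 1 lower and 4 not called. OsC6, a lipid transfer protein needed for orbicules and exine, stood at 53.0, 32.7 and 23.4 in MA and at 37558, 33306 and 23094 in SCP, a rise of 9.80 (SE 0.43, adjusted p = 6.00e-07 by limma). OsC4, another anther lipid-transfer-like protein, was already at 44299, 38068 and 41579 in MA and remained at 41392, 41559 and 38469 in SCP, with overlapping groups. RAFTIN1, an orbicule protein, went from 337, 424 and 454 to 9860, 9051 and 7471 without overlap, but missed the limit (log2 difference 4.44, SE 0.92, adjusted p = 0.00844 by limma). The exporter ABCG26 (LOC_Os10g35180) was at 932, 862 and 881 in MA and 3764, 3482 and 10539 in SCP (adjusted p = 0.0297 by limma). DEX1 (LOC_Os03g61050), a calcium-binding protein of exine patterning, dropped from 1939, 1873 and 2024 to 736, 667 and 640.0 (log2 difference -1.52, SE 0.11, adjusted p = 2.11e-05 by limma). RTS (LOC_Os01g70440) lay between 4.71 and 4.79 on all 6 arrays and had a mean of 3007 in TPA.

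Both tapetal proteases measured rose. AP25, an aspartic protease that EAT1 switches on during tapetal cell death, went from 294, 266 and 250.1 in MA to 19707, 20565 and 17408 in SCP (log2 difference 6.15, SE 0.29, adjusted p = 1.15e-06 by limma). CP1, a papain-like cysteine protease, went from 10.1, 12.3 and 10.6 to 1253, 1186 and 765.5 (log2 difference 6.57, SE 0.35, adjusted p = 2.41e-06 by limma). UGP1 (LOC_Os09g38030), the UDP-glucose pyrophosphorylase on which callose deposition depends, fell from 10884, 10738 and 10585 to 2969, 2947 and 3110 (log2 difference -1.84, SE 0.33, adjusted p = 0.00373 by limma), a call that was lost when any 1 of the 6 arrays was left out. It was called lower in the fit of the 6 arrays alone (adjusted p = 1.45e-05 by limma).

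Among genes with a name or putative function the largest fitted rise belonged to OsSub42 (LOC_Os04g45960), a putative subtilisin-type serine protease that was at background in MA. It was at 4.32, 4.31 and 4.33 in MA and at 22861, 21407 and 20811 in SCP, a log2 difference of 12.29 (SE 0.03, adjusted p = 3.95e-16 by limma), with means of 4.33 in PMA and 4.35 in TPA, so its signal was confined to SCP among these 4 stages. NIP4-1, a NIP-type aquaporin, followed, from 15.6, 16.9 and 16.7 to 38378, 39142 and 34373 (log2 difference 11.15, SE 0.08, adjusted p = 1.49e-12 by limma), and was again at background in PMA (7.4996) and TPA (8.87). CHS1 (LOC_Os11g32650), chalcone synthase, the entry enzyme of flavonoid synthesis, went from 11.4, 11.9 and 9.20 to 21015, 22427 and 17933 (log2 difference 10.88, SE 0.22, adjusted p = 2.80e-09 by limma). Of its 4 other probe sets, 2 were called higher and the others were not called.

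The rest of the 15 largest rises included an amino acid transporter (LOC_Os06g12320, log2 difference 9.41), a 3-oxoacyl reductase of fatty acid elongation (LOC_Os12g13930, 8.35), the sugar exporter SWEET5, the secretory phospholipase pla2-II (7.91), an oil-body caleosin (LOC_Os06g14350, 7.85), the endoplasmic reticulum chaperone BIP4 (7.30), the copper ATPase HMA5 (7.18), ERG1 (7.11), a UDP-glucosyl transferase (LOC_Os03g46400, 7.10) and a polygalacturonase (LOC_Os06g40880, 7.05), a pectin-cutting enzyme. The 3-oxoacyl reductase was at 33.5, 13.995 and 32.5 in MA and 9304, 9279 and 6146 in SCP, with means of 5.32 in both PMA and TPA. The amino acid transporter was at 6.18, 6.37 and 7.31 in MA and at 6812, 7488 and 1771 in SCP. The caleosin was at 8.61, 9.34 and 8.61 in MA and at 3230, 3737 and 699 in SCP. In both of these the third SCP array was the lowest, whereas for PTC1, SWEET5, HMA5 and the polygalacturonase it was the highest.

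**Figure D3:**
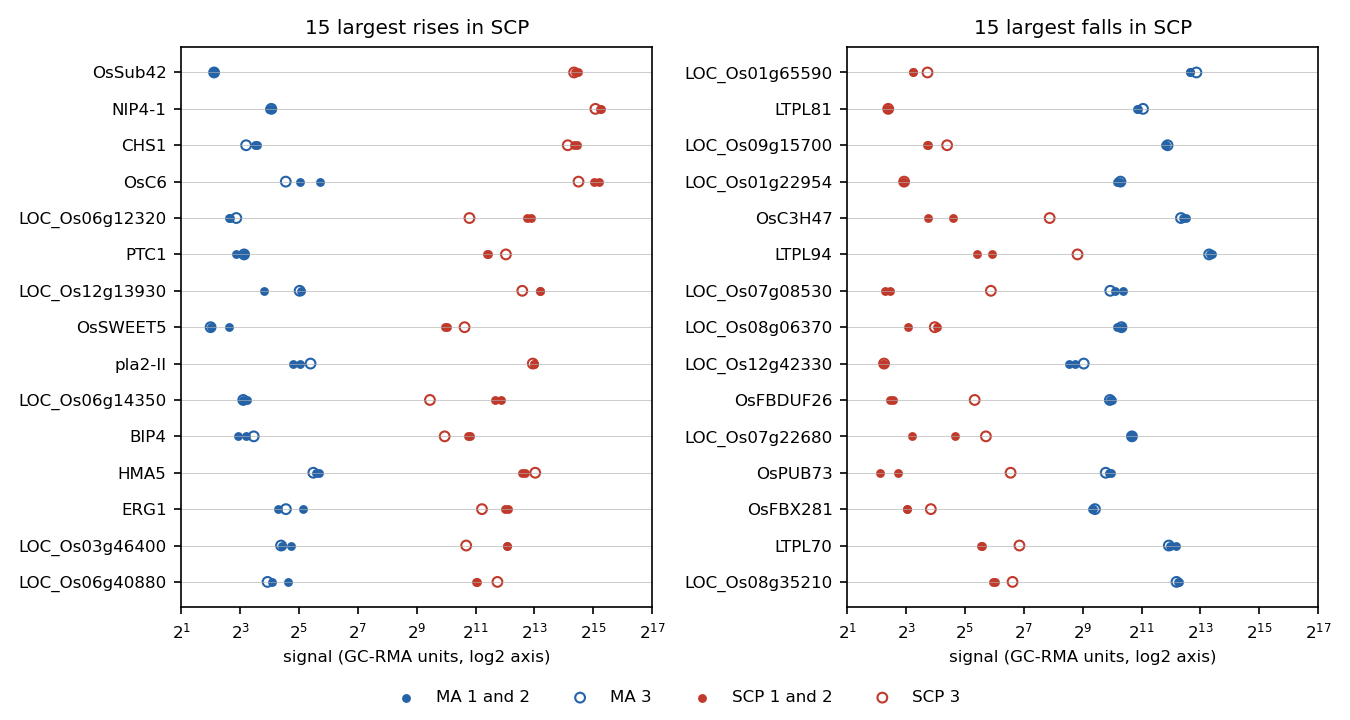
Signal on each MA array (blue) and SCP array (red) of the 15 largest rises (left) and 15 largest falls (right) among genes with a name or putative function, on a log2 axis in GC-RMA units; open circles are replicate 3. No MA value overlaps an SCP value in any of the 30 genes, and in most of the falls SCP replicate 3 is the SCP array nearest to MA.

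Of 31 genes for sugar transport and sucrose breakdown, 5 (16.1%) were higher and 3 (9.68%) lower beside 6.78% and 9.99% of named genes, with a median log2 difference of -0.01. SWEET5 went from 6.15, 4.03 and 3.99 in MA to 1044, 1006 and 1579 in SCP (log2 difference 8.0005, SE 0.22, adjusted p = 2.22e-08 by limma) and had a mean of 11835 in TPA. SWEET15 went from 15.6, 20.7 and 21.9 to 1149, 1127 and 493 (5.49, adjusted p = 7.29e-06 by limma). SUS3, a sucrose synthase, went from 32.5, 38.6 and 25.1 to 1052, 1124 and 4027, with SCP replicate 3 the highest, whereas for SWEET15 it was the lowest. The remaining rises were the sucrose synthase SUS2 (mean 1890 in MA and 27660 in SCP, log2 difference 3.87, not called without SCP replicate 3) and the sucrose transporter SUT5 (22.9 and 812, 4.88). The falls were the cell wall invertase CIN4 (from 771, 782 and 793 to 24.4, 26.0 and 85.7), the monosaccharide transporter MST3 (from 767, 762 and 880.0 to 32.7, 39.8 and 31.8) and SWEET14 (from 126, 114 and 119.6 to 9.08, 14.96 and 11.2). SWEET11 was not called, with means of 23671 and 16899. The starch synthase SSII-3 fell from 1087, 1177 and 1176 to 117, 124 and 143 and the alpha-amylase AMY3A from 281, 302 and 306 to 4.63, 4.64 and 4.68, while AMY3E rose from a mean of 5.40 to 22.6. A second probe set of SSII-3 was not called, and the other 9 of 12 starch genes were not called.

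Of 25 aquaporins 3 were higher and 1 lower: beside NIP4-1, PIP2-2 went from 96.9, 96.6 and 91.2 to 604, 647 and 777 and SIP2-1 from 21.8, 19.8 and 19.3 to 119, 116 and 490.2, while the tonoplast form TIP3-2 fell from 664, 585 and 556 to 13.2, 11.96 and 19.8 (log2 difference -5.36, SE 0.22, adjusted p = 4.54e-07 by limma). The tonoplast aquaporin TIP1-1 had means of 17672 and 18919 and was not called. Of 68 metal, potassium, ammonium and phosphate transporters 5 (7.35%) were higher and 2 (2.94%) lower, near or under the shares of named genes (6.78% and 9.99%), so the members below are single genes and not a result of the class. HMA5 went from 48.2, 51.0 and 44.8 to 6567, 6171 and 8334, and the phosphate transporter PT12 from 5.48, 5.45 and 5.45 to 175, 133 and 176 (log2 difference 4.87, SE 0.10, adjusted p = 2.89e-09 by limma) with background signal in PMA and TPA. Of 11 named ABC transporters 2 (18.2%) were higher and 0 lower, beside 6.78% and 9.99% of named genes. The rises were ABCG5 (5.11, 5.21 and 5.14 to 86.5, 117 and 118) and ABCG36 (283, 284 and 291 to 3860, 3789 and 3011). A second probe set of PIP2-2 and of ABCG36 was not called.

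Of 17 phenylpropanoid and flavonoid genes 4 (23.5%) were higher and 1 (5.88%) lower beside 6.78% and 9.99% of named genes, with a median log2 difference of 0.83. Beside CHS1 these were the 4-coumarate:CoA ligases 4CL4 (log2 difference 1.49) and 4CL5 (from 510.5, 485 and 493 to 4500, 4594 and 2742; 2.95) and the cinnamyl alcohol dehydrogenase CAD2, listed as CAD (from 1152, 1251 and 1141 to 16290, 15795 and 11016; 3.58, adjusted p = 3.07e-04 by limma). The related CAD8C moved the opposite way, from 3124, 2853 and 3096 to 90.0, 81.6 and 84.1 (-5.15, adjusted p = 5.99e-06 by limma). PAL, which supplies cinnamate to the pathway, had means of 3763 and 9874 and missed the limit (adjusted p = 0.0272 by limma). Of its 4 other probe sets, which differed by 1.005 to 2.18, 2 were called higher. A second probe set of CAD8C and of 4CL4 was not called (log2 differences -0.195 and -0.03).

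The classes that follow were formed from putative functions, known for 1836 probe sets, of which 9.37% were higher and 21.1% lower (30.4% in all). That annotation came from tables of the study. The first held genes that differed between the 4 anther stages, and part of it was usable. Its genes were selected on these same arrays, MA and SCP included, and so for change between stages. The other held genes preferential to pollen mother cells, whose 917 probe sets here were 7.09% higher and 27.8% lower (34.9% in all). A class rich in this pollen mother cell table starts from a high share of falls. Of 9 subtilisins and aspartic proteases 5 were higher and 0 lower: OsSub42, OsSub58 (LOC_Os09g30250, mean 6.92 in MA and 74.0 in SCP), LOC_Os06g15760 (172 and 1440.5), and the oryzasin-like LOC_Os05g49200 (19.6 and 90.9) and LOC_Os01g47410 (1668 and 3444). Of 24 genes whose putative function held a lipid or acyl keyword 5 were higher and 3 lower. Among the falls, LOC_Os01g08550 is an aminoacyl-tRNA synthetase, which is not a lipid enzyme. Among the rises an acyl carrier protein (LOC_Os09g36860), the cofactor on which fatty acids are built, went from 7275, 7021 and 6497 to 21442, 21211 and 20590 (log2 difference 1.61, SE 0.09, adjusted p = 3.44e-06 by limma), and a GDSL lipase (LOC_Os03g19670) from 76.3, 74.1 and 70.3 to 1252, 1268 and 1847 (4.28).

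**Figure D4:**
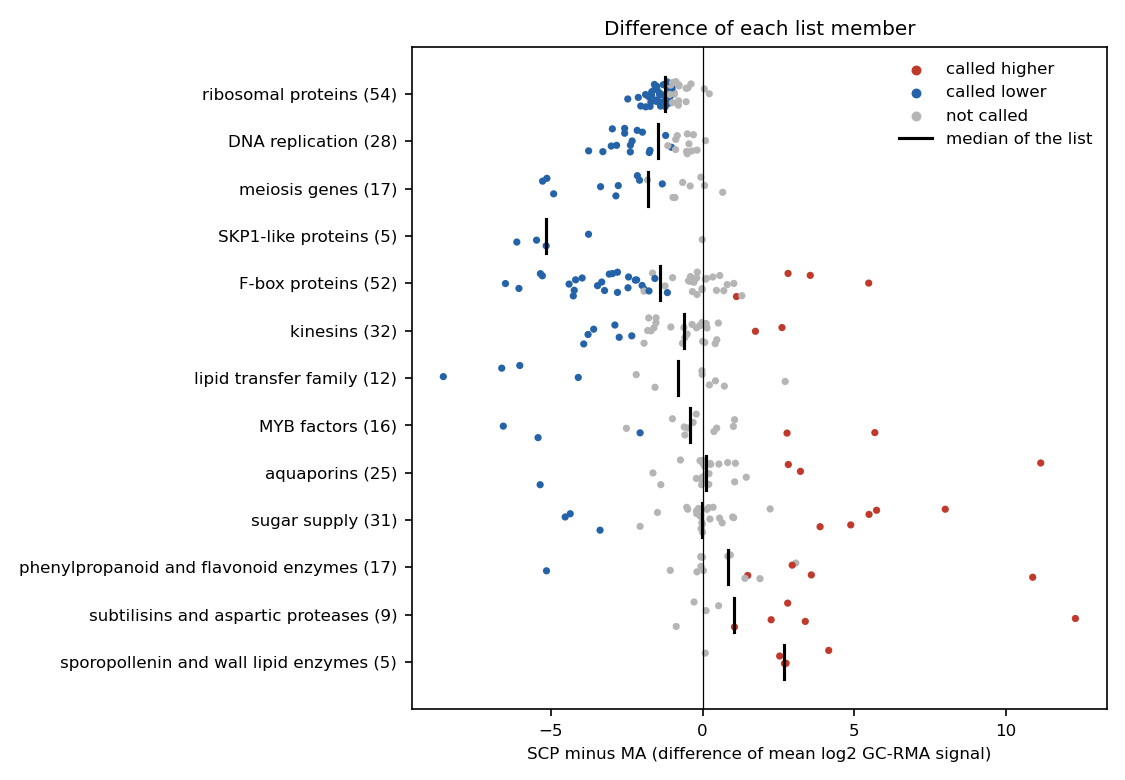
Difference between SCP and MA in mean log2 GC-RMA signal (x axis) for every measured member of 13 gene lists, with the number of members in brackets; red points were called higher, blue lower, and the black bar is the median. Ribosomal proteins crowd narrowly below 0, F-box and meiosis genes spread far to the left, and the sporopollenin enzymes lie at or right of 0.

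The largest fall among genes with a putative function was that of a galactosyltransferase (LOC_Os01g65590), from 6423, 6472 and 7442 in MA to 9.47, 9.36 and 13.2 in SCP, a log2 difference of -9.32 (SE 0.33, adjusted p = 1.41e-07 by limma). Its mean was 128 in PMA and 7.68 in TPA. Of 12 lipid transfer family members, 7 of them from the pollen mother cell table, 4 (33.3%) were lower and 0 higher. That is near the 27.8% lower of that table and the 21.1% of probe sets with a putative function. The members are therefore given as single genes and not as a result of the class. In the fit of the 6 arrays alone 2 were lower, LTPL94 (LOC_Os03g46110, adjusted p = 0.00921 by limma) and LTPL97 (LOC_Os08g43240, adjusted p = 0.00749) losing the call, and 1 was higher. LTPL81 (LOC_Os04g38840) dropped from 1895, 1852 and 2118 to 5.15, 5.21 and 5.24 (-8.55, adjusted p = 1.60e-06 by limma), LTPL94 (LOC_Os03g46110) from 10780, 10310 and 10040 to 42.1, 60.9 and 453, LTPL70 (LOC_Os06g23360) from 4553, 4032 and 3886 to 46.5, 47.7 and 115, and LTPL97 (LOC_Os08g43240) from 14704, 16699 and 18203 to 648, 609 and 2240. OsC6 and OsC4, which belong to the same broad family, took the courses given above. A receptor-like kinase (LOC_Os09g15700) fell from 3635, 3554 and 3776 to 13.0, 13.4 and 20.998, and a serine carboxypeptidase (LOC_Os01g22954) from 1244, 1145 and 1245 to 7.64, 7.48 and 7.63. The CCCH zinc finger gene OsC3H47 fell from 5802, 5451 and 5171 to 24.2, 13.3 and 235. Its call was lost in the fit of the 6 arrays alone (adjusted p = 0.0134 by limma).

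F-box proteins, the substrate receptors of SCF ubiquitin ligases, and their SKP1 adaptors were lower more often than higher. Of 52 F-box genes 25 (48.1%) were lower and 4 (7.69%) higher, beside 21.1% and 9.37% of probe sets with a putative function. The median log2 difference was -1.41 for the F-box genes and -0.24 for all of those probe sets. Of these 52, 43 came from the pollen mother cell table, so the direction is not independent of how they were listed. Among the 25 falls MA was the highest of the 4 stages for 21. OsFBX281 (LOC_Os08g16710) went from 646, 637 and 683 to 8.15, 8.13 and 14.3 (log2 difference -6.06, adjusted p = 1.50e-07 by limma), OsFBX272 (LOC_Os08g09720) from 170.1, 144 and 161 to 6.63, 6.62 and 9.46, and OsFBDUF26 (LOC_Os05g46050) from 965, 1020.3 and 969 to 5.45, 5.85 and 40.2. Against that current OsFBX219 (LOC_Os07g09110) rose from 30.8, 48.4 and 26.1 to 1861, 2159 and 855, OsFBX369 (LOC_Os10g05240) from 47.7, 42.3 and 46.1 to 534, 520.1 and 537, OsFBX265 (LOC_Os08g09410) from a mean of 4.65 to 35.99 and OsFBX323 (LOC_Os09g20650) from 803 to 1746. Of 5 SKP1-like genes, all 5 from the pollen mother cell table, 4 were lower; in the fit of the 6 arrays alone 2 were, LOC_Os07g43260 (adjusted p = 0.0158 by limma) and LOC_Os07g43250 (adjusted p = 0.00763) losing the call. LOC_Os07g43260 went from 5590, 5429 and 5091 to 60.5, 56.99 and 507.5, LOC_Os07g43250 from 3509, 3650 and 4271 to 70.6, 54.9 and 309, LOC_Os07g22680 from 1632, 1577 and 1631 to 25.6, 9.18 and 52.3 and LOC_Os12g40300 from 4802, 4958 and 5115 to 272, 284 and 629. In each of these the third SCP array was the highest of its group while remaining far under MA. The U-box ubiquitin ligase PUB73 fell likewise, from 990, 953 and 880 to 4.33, 6.61 and 93.6. PUB73 and OsFBDUF26 also lost the call in the fit of the 6 arrays alone (adjusted p = 0.0288 and 0.00664 by limma). Of 19 ubiquitin and RING finger genes, 12 of them from the pollen mother cell table, 9 (47.4%) were lower and 3 (15.8%) higher. The probe sets of that table were 27.8% lower and 7.09% higher. Among the rises was an ATL2-like RING-H2 gene (LOC_Os04g49550), from 3132, 3130 and 2887 to 14146, 14051 and 15122.

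Meiosis genes were lower in SCP anthers, though not uniformly. Of 17 measured, 11 of them also in the pollen mother cell table, 9 (52.9%) were lower and 0 higher, with a median log2 difference of -1.82. Beside this, 27.8% of that table's probe sets were lower, with a median of -0.36, and 9.99% of named genes. PAIR2, the axis protein of homologue pairing, went from 3477, 3679 and 3516 to 73.3, 78.03 and 288 (-4.91, SE 0.54, adjusted p = 2.12e-04 by limma). ZEP1 (LOC_Os04g37960), the central element of the synaptonemal complex, went from 570, 694 and 633 to 14.6, 11.96 and 32.8 (-5.14, SE 0.33, adjusted p = 7.86e-06 by limma). The recombinases DMC1B (LOC_Os11g04954) and DMC1A (LOC_Os12g04980), near-identical copies whose probes may share transcripts, went from 343, 391 and 350 to 8.97, 8.98 and 9.97 and from 450.4, 448 and 473 to 56.7, 59.0 and 74.7. CRC1, MER3, MSH4, PAIR1 and HEI10, which act in synapsis or crossover formation, fell from means of 61.8, 41.0, 21.2, 14.4 and 150.1 to 5.99, 5.95, 4.88, 5.56 and 33.8. A second probe set of MER3 and of HEI10 was not called. The Argonaute MEL1 (57.1 and 16.1), MEL2 (41.8 and 69.4), AM1 (368 and 384) and the cohesin RAD21-4 (19.0 and 18.8) were not called. Their PMA means were 7716, 1362, 953 and 157. The MEL1 groups did not overlap (log2 difference -1.82), and it was called lower in the fit of the 6 arrays alone (adjusted p = 7.58e-04 by limma). SPO11-1, MRE11, MSH5 and SDS were not called either, but a second probe set of SDS was called lower, by a log2 difference of -3.50.

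Of 28 replication genes 16 (57.1%) were lower and 0 higher (median log2 difference -1.48), beside 9.99% and 6.78% of named genes. The falls included 6 MCM helicase subunits. MCM6 went from 200, 167 and 192 to 31.1, 21.1 and 18.5 (-3.01, SE 0.27, adjusted p = 6.56e-05 by limma), the single-strand binding subunit RPA70C from 606, 553 and 548 to 81.3, 80.5 and 57.4 and the origin recognition subunit ORC1 from 15.3, 20.6 and 18.1 to 5.39, 5.37 and 5.32. For 13 of the 16 the highest stage mean was in PMA. Cell division genes stood closer to the shares of named genes (6.78% higher, 9.99% lower): of 43 cyclin and cell cycle genes 7 (16.3%) were lower and 2 higher. The A-type cyclin CYCA2-1 fell from 905, 956 and 890.4 to 72.5, 53.4 and 71.7, whereas 2 inhibitors of cyclin-dependent kinases parted, KRP4 falling from 1742, 1593 and 1833 to 413, 388 and 473 and KRP1 rising from a mean of 147 to 712, a call lost without SCP replicate 3; a second probe set of KRP4 was not called. The other rise was CYCF2-2 (4.09 to 58.8). Of 32 kinesins 6 were lower and 2 higher; the count of falls ran from 3 to 6 when single arrays were left out and was 11 in a fit of the 6 arrays alone. The minus-end motors KIN14H (from 672, 676 and 647 to 40.4, 32.2 and 65.1) and KIN14A (from 563, 638 and 676 to 42.5, 34.8 and 63.5) fell, while KIN7K (from 507, 525 and 504 to 2945, 3099 and 3388) and KIN4A (from 654, 641 and 650 to 2204, 2116 and 2181) rose. Histones were lower in 2 of 6 genes, LOC_Os05g36280 (H3, 3374 to 450) and LOC_Os03g51200 (a core histone, 975 to 129, not called without SCP replicate 3).

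Of 54 ribosomal protein genes 36 (66.7%) were lower and 0 higher, beside 21.1% and 9.37% of probe sets with a putative function. The median log2 difference was -1.24, and 52 of the 54 differences were below 0. The single-gene changes were small next to those above: 3 of the 54 fell by 4-fold or more. L18a (LOC_Os01g54870) went from 6930, 7174 and 7115 in MA to 2447, 2307 and 2556 in SCP (-1.54, SE 0.07, adjusted p = 6.17e-07 by limma) and RPS4 from 7135, 7741 and 7374 to 3355, 3299 and 3709 (-1.10, SE 0.08, adjusted p = 1.53e-05 by limma). The median level over the 54 genes was 7239 in MA and 2873 in SCP, against 7807 before meiosis and 1422 with tricellular pollen. With genes picked by name from the reference annotation, 25 ribosomal protein genes gave 17 lower and 0 higher with a median of -1.26. Where such a gene had several probe sets, those with a locus in the study's tables were preferred. The 2 lists may share genes, so they are not independent. Of 8 translation factors 3 were lower, EIF3K (from 2549, 2602 and 2477 to 1107, 1053 and 1094; -1.23), EF-1-BETA (-1.14) and EIF-4A-1 (-1.0002), while EF-1-ALPHA differed by -0.96 (adjusted p = 1.04e-05 by limma), just under the fold limit. Without SCP replicate 3 the count was 37 of 54 ribosomal protein genes.

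By the functional categories of the study, translation stood at 43 of 73 probe sets lower and 0 higher, or 58.9% beside 15.2% of the 986 probe sets with a category, of which 26.6% were called. No other category exceeded 24.0% lower, the share of carbohydrate metabolism (6 of 25). RNA metabolism, by contrast, was 3 of 39 lower and 0 higher. Shares of rises were 30.0% for secondary metabolism (6 of 20) and 18.9% for transporters (10 of 53), beside 11.4% over all; 7 of 28 vesicular trafficking and 5 of 25 protein interaction probe sets rose. Those categories hold few probe sets each and were chosen by the study on these arrays.

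**Figure D5:**
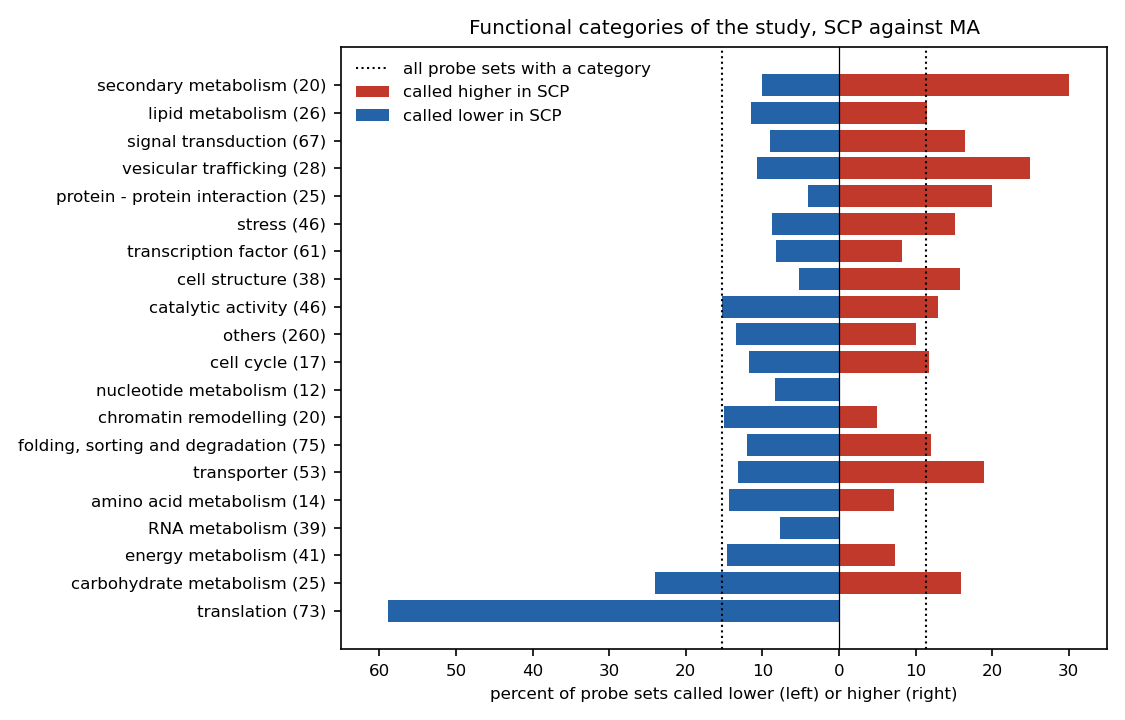
Percent of the probe sets in each functional category of the study that were called lower (left, blue) or higher (right, red) in SCP, with the number of probe sets in brackets and dotted lines at the shares over all 986 probe sets with a category (15.2% lower, 11.4% higher). Translation reaches 58.9% lower with no probe set higher, and the other categories lie closer to the dotted lines.

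Among regulators most lists lay near the background, which was 6.78% higher and 9.99% lower for named genes and 9.37% and 21.1% for those with a putative function, and their members are given as single genes. Of 16 MYB family genes 2 were higher, LOC_Os03g38210 (from 5.29, 5.67 and 5.31 to 369, 254 and 228) and LOC_Os07g02800 (from 1074, 1143 and 1079 to 7363, 6652 and 8805), and 3 were lower, among them MOF1 (from 4395, 4239 and 4721 to 59.4, 59.0 and 315) and LOC_Os08g06370 (from 1294, 1134 and 1274 to 16.7, 8.27 and 15.7). The third was LOC_Os08g15020 (60.6 to 15.4). Of 31 MADS-box genes 2 were higher and 3 lower: MADS55 rose from 73.4, 81.7 and 66.4 to 1616, 1558 and 2486 and MADS26 from a mean of 21.9 to 80.0, while MADS13, MADS6 and MADS1, which act in floral organ identity, fell, the last by a call that was lost without SCP replicate 3. YABBY genes were lower in 3 of 6: YAB5 (also named OsYABBY6, from 56.8, 40.3 and 38.1 to 6.09, 6.92 and 7.03), YAB2 (42.4 to 6.24) and YAB7 (also named OsYABBY4, 43.4 to 11.5). Among 13 Argonautes AGO3 (LOC_Os04g52550) fell from 1007, 922 and 847 to 36.4, 47.4 and 109 and AGO14 from a mean of 36.3 to 7.37, while AGO2 rose from 1130, 1204 and 1033 to 2917, 2946 and 3474. Of 57 auxin genes 4 were higher and 2 lower. A putative auxin response factor, LOC_Os07g08530, which was not in that list, fell from 1324, 1107 and 978 to 4.86, 5.42 and 58.9, and ARF13 rose from 6.18, 5.78 and 4.90 to 99.4, 87.9 and 219. In the CCCH zinc finger family (50 genes, 5 higher, 4 lower) C3H43 rose from 9.19, 9.86 and 14.3 to 759, 774 and 804 and C3H10 from 6.53, 6.71 and 6.53 to 197, 163 and 131.

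Other families held few called genes by the same rule. Of 34 jasmonate genes 2 were lower, of 20 heat shock factors, 13 actins and actin-depolymerizing factors, 7 autophagy genes and 6 WRKY factors 0 were called, of 29 expansins 2 were higher and 1 lower, of 29 cellulose synthase family genes 2 were higher and 1 lower, and of 29 named cytochromes P450 1 (CYP703A3) was higher and 3 were lower. These counts lie under the shares of 6.78% higher and 9.99% lower for named genes or close to them. A gene that was not called may still have changed without passing the limits: ACT1, with means of 16567 and 9190, differed by -0.85 (adjusted p = 5.18e-07 by limma). Among the 20 heat shock factors 15 log2 differences were above 0 and 5 below, with a median of 0.36 and a range of -1.33 to 3.35.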

How the data were processed

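RNA from bulked anthers was hybridised to 1-colour Affymetrix rice arrays. Per the labels and the study's methods, the authors scanned with GCOS and computed GC-RMA signals in ArrayAssist together with arrays of other tissues, not used here. The values deposited are intensities on a linear scale (0 other columns of per-sample values were found). Arrays carry no read depth, so their number limits the precision. No date, slide or scan batch was given in the sources used here. The log2 of the deposited intensity was fitted in limma 3.58.1 (R 4.3.3) over 12 arrays in 4 stages (8 residual degrees of freedom), SCP minus MA, without further normalization, filter or pseudocount, and p-values were adjusted by Benjamini-Hochberg over 57258 rice probe sets, leaving aside 123 Affymetrix controls. Background binding sets a floor near 2.49, so differences of genes near 10 understate change, and fitted folds from background are not bounds. The fit was tested on simulated data with known changes.

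The platform annotation pairs 22436 rice probe sets with 1 of 17905 genes, 95 with several and does not list 34727; 3159 carry a gene name. Loci and putative functions came from the study's supplementary files (4012 and 1836 probe sets), and names such as UDT1, CYP704B2 and ZEP1 were assigned by locus. A gene was measured by the probe set paired with its locus there, otherwise by its brightest. The shares over named genes took the brightest probe set of each gene, with or without a locus there. Lists and those shares were thus measured by different rules, and the effect of this was not tested. Of 156 named genes called, 20 had further probe sets, all called the same way for 4 and the opposite way for 0. Probe sets ending in _x_at or _s_at can bind related transcripts. Of the genes listed, 14, among them DPW, WDA1 and MYB80, were not matched and are not analysed here. Named were the 15 largest rises and falls with a name or function (entries called only "expressed protein" were passed over), all measured tapetum, wall and callose genes, and of the other lists the 4 lowest adjusted p and the 2 brightest not called; genes named outside that rule, where a count was 5 or fewer or a course stood out, were chosen after their values were seen. Members and lists were chosen with earlier results of these data known. The p-values measure the spread between these 3 bulks per stage, which may share plants. Alternatives were quantile and common-median scaling, the 6 arrays alone, filters at 10, a floor of 10, a pseudocount of 16, an equal-variance test, an ANOVA screen, trended variances, a replicate block, each array left out, 1 probe set per gene and a 4-fold limit. Replicate numbers did not pair the samples: deviations of same-numbered MA and SCP arrays correlated at -0.002, 0.025 and 0.044. Promoter and protein sequences were not used here.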

Additional observations from a re-analysis of the deposited data

How the results depend on the processing

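With all arrays 4764 probe sets were called, 2206 higher and 2558 lower. Rises outnumbered falls without SCP replicate 3 (2315 and 2197) and at a 4-fold limit (1327 and 1078, 2405 in all). A separate fit of 1 probe set per gene, adjusted over 17905, called 2985 (1326 and 1659). With single arrays left out the count ran from 3525 to 4512, with 1629 to 2315 higher and 1849 to 2197 lower. Over the gene lists the count was 237 at a 4-fold limit. Higher tapetum regulators numbered 1 in place of 2 under quantile normalization and with any array left out, and lower ones 1 in place of 2 by the equal-variance test. By that test 9 in place of 16 replication genes were lower, and 2 higher and 16 lower F-box genes in place of 4 and 25. With 1 probe set per gene, 2 in place of 4 sporopollenin enzymes and 1 F-box gene were higher. That fit held only the brightest probe set of each annotated gene, and members without a probe set in it could not be counted. In it 285 of 320 named genes had the same call, 5 a stronger one and 0 a weaker one. At a 4-fold limit 3 in place of 36 ribosomal protein genes were lower. The cause was not tested except where fewer features could pass. Scaling to a common median moved the median of all probe sets from -0.014 to 0.025. With the replicate number as a block, a pairing that the data did not bear out, 4014 probe sets were called (1863 higher, 2151 lower) and 1 tapetum regulator was higher.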

Other observations

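Several genes with their highest level in TPA already differed between MA and SCP, in both directions. The calcium-dependent protein kinase gene CPK22 gave 80.8, 76.9 and 61.9 in MA and 4.86, 4.88 and 4.91 in SCP (log2 difference -3.90, adjusted p = 1.02e-08 by limma), and its mean was 14571 in TPA. The beta-expansin EXPB9 likewise went from 63.9, 85.2 and 59.95 to 6.5003, 5.34 and 5.49 and had a mean of 19076 in TPA, so both were at background at SCP between a low and a high level. In contrast CPK21 rose from 5.43, 5.93 and 7.37 to 110.7, 114 and 52.4 and NAC010 from 4.74, 5.31 and 4.76 to 621, 571 and 66.7, with TPA means of 4992 and 909; in both the third SCP array was the lowest. The tubulin gene TUB8 rose from 8.04, 8.96 and 9.19 to 26.3, 33.1 and 21.4, against a TPA mean of 9337. These genes were chosen after their values were seen.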
